A study of Homo sapiens with 6 samples.

Results

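Aminoacyl-tRNA synthetases are the enzymes that join each amino acid to its tRNA, and the 39 genes described here are 20 cytosolic synthetase genes, 15 mitochondrial ones, 3 scaffold proteins of the complex that several cytosolic synthetases form, and TARSL2, a relative of the cytosolic threonine enzyme. They were picked by symbol from a table of 57820 annotated genes: symbols that end in ARS2 were taken as mitochondrial, and each of the 39 symbols matched 1 row. Polyadenylated RNA came from U2OS cells, an established human osteosarcoma line, exposed for 4 h to 5 µM NMS-873 dissolved in DMSO (3 libraries) or to 0.05% DMSO alone (3 libraries). NMS-873 inhibits VCP, the ATPase that extracts ubiquitylated proteins from membranes and complexes. Nothing in the labels ties the 3 libraries of a treatment to independent cultures. The p-values here therefore reflect only the spread between libraries, largely pooled over genes, and that spread may be technical. In bulk RNA, less transcript per cell and fewer cells with the transcript cannot be told apart.

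Human cells carry separate synthetases for the cytosol, where most proteins are made, and for mitochondria, which translate the few messages of their own genome. Nuclear genes encode both kinds. A few genes serve both places, among them GARS and KARS, and mitochondria have no glutamine enzyme of the usual kind: they charge that tRNA with glutamate and convert it. Uncharged tRNA activates the kinase GCN2 (gene EIF2AK4), which phosphorylates eIF2 alpha and raises translation of the transcription factor ATF4. ATF4 is known to bind and activate many cytosolic synthetase genes.

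The libraries held between 21132311 and 22488952 reads in genes. Levels are given in FPKM, reads per kilobase of gene with a correction for library size, on the deposited scale, which is tied to added ERCC spike-in RNA. Changes were tested with limma on log2(normalised count + 1) over all 14889 genes whose normalised count averaged 10 or more, a minimum that all 39 members passed, and a gene is said to have risen or fallen at an adjusted p under 0.05. NMS-873 replicate 1 stood somewhat apart: its reads differed from those of the other NMS-873 libraries with a chi-square per degree of freedom of 7.43 and 7.90, against 1.79 between replicates 2 and 3. DMSO replicate 3 differed from the other DMSO libraries by 3.52 and 3.58, against 1.52 between replicates 1 and 2. Calls of the synthetases that turn on either library are given without it. On the spike-in scale the median gene was at -0.10 (log2), so a change close to -0.10 is that of the typical gene. It was also at -0.10 with equal library totals. When libraries were scaled to their genes it was at 0.00, and with TMM factors at 0.01. Both of these scalings place the typical gene near 0 by design. Of the markers of the line's lineage, VIM, FN1, SPARC, COL1A1 and CDH2 averaged between 57.1 and 442 FPKM in each treatment. CDH11 was at 3.02 FPKM with NMS-873 and 3.28 FPKM with DMSO, RUNX2 was at 0.656 FPKM with NMS-873 and 1.27 FPKM with DMSO, and COL1A2 was at 0.0357 FPKM with NMS-873 and 0.0450 FPKM with DMSO. RUNX2, COL1A1 and VIM fell, by 0.95, 0.43 and 0.20 on the log2 scale. The markers of other cell types stayed at or under 1.40 FPKM, a bound that RUNX2 and COL1A2 also lay under, with CD3E and ALB at 0.

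Of the 20 cytosolic synthetases 11 rose with NMS-873 and 1 fell, where 14.9% of all tested genes rose and 33.0% fell (47.9% in either direction). Without NMS-873 replicate 1 these counts were 12 and 0. The genes that rose carry alanine, cysteine, serine, glycine, tryptophan, glutamate and proline, threonine, tyrosine, asparagine, isoleucine and methionine. The median log2 fold change of the 20 genes was 0.28, against -0.10 for all genes tested, and in 13 of the 20 the libraries of the treatments did not overlap, as in 53.6% of all genes tested. Scaling to the genes gave 15 that rose and 0 that fell (25.3% and 20.9% of all genes), and TMM factors gave 16 and 0 (26.3% and 19.8%). Equal library totals gave 11 and 2 (16.6% and 35.7%), and quantile normalisation 12 and 3 (20.7% and 27.6%). Of the 15 mitochondrial synthetases 0 rose and 8 fell, with a median of -0.15 and no overlap in 8. They were 0 and 8 again by limma's unadjusted p under 0.05, by voom and without NMS-873 replicate 1. The number that fell was 6 without NMS-873 replicate 2, DMSO replicate 1 or DMSO replicate 3 and with no variance trend, and 9 without NMS-873 replicate 3. Scaling to the genes gave 1 mitochondrial gene that rose and 6 that fell, and TMM factors gave 2 and 6. The medians of the sets lay 0.43 apart on the log2 scale, a distance that a common scaling factor does not move. Summed over the 20 genes, the cytosolic level was 1199.2, 1246.9 and 1263.9 FPKM in NMS-873 replicates 1 to 3, against 981, 953 and 1028.4 FPKM in DMSO replicates 1 to 3. The summed mitochondrial level was 145, 149 and 154 FPKM with NMS-873, against 164, 159 and 170 FPKM with DMSO. On the deposited scale the treatments did not overlap in either sum, and a common scaling factor can change that. Such a factor does not move the ratio of the sums. The cytosolic sum was 8.19 to 8.35 times the mitochondrial one with NMS-873 and 5.98 to 6.05 times with DMSO.

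**Figure D1:**
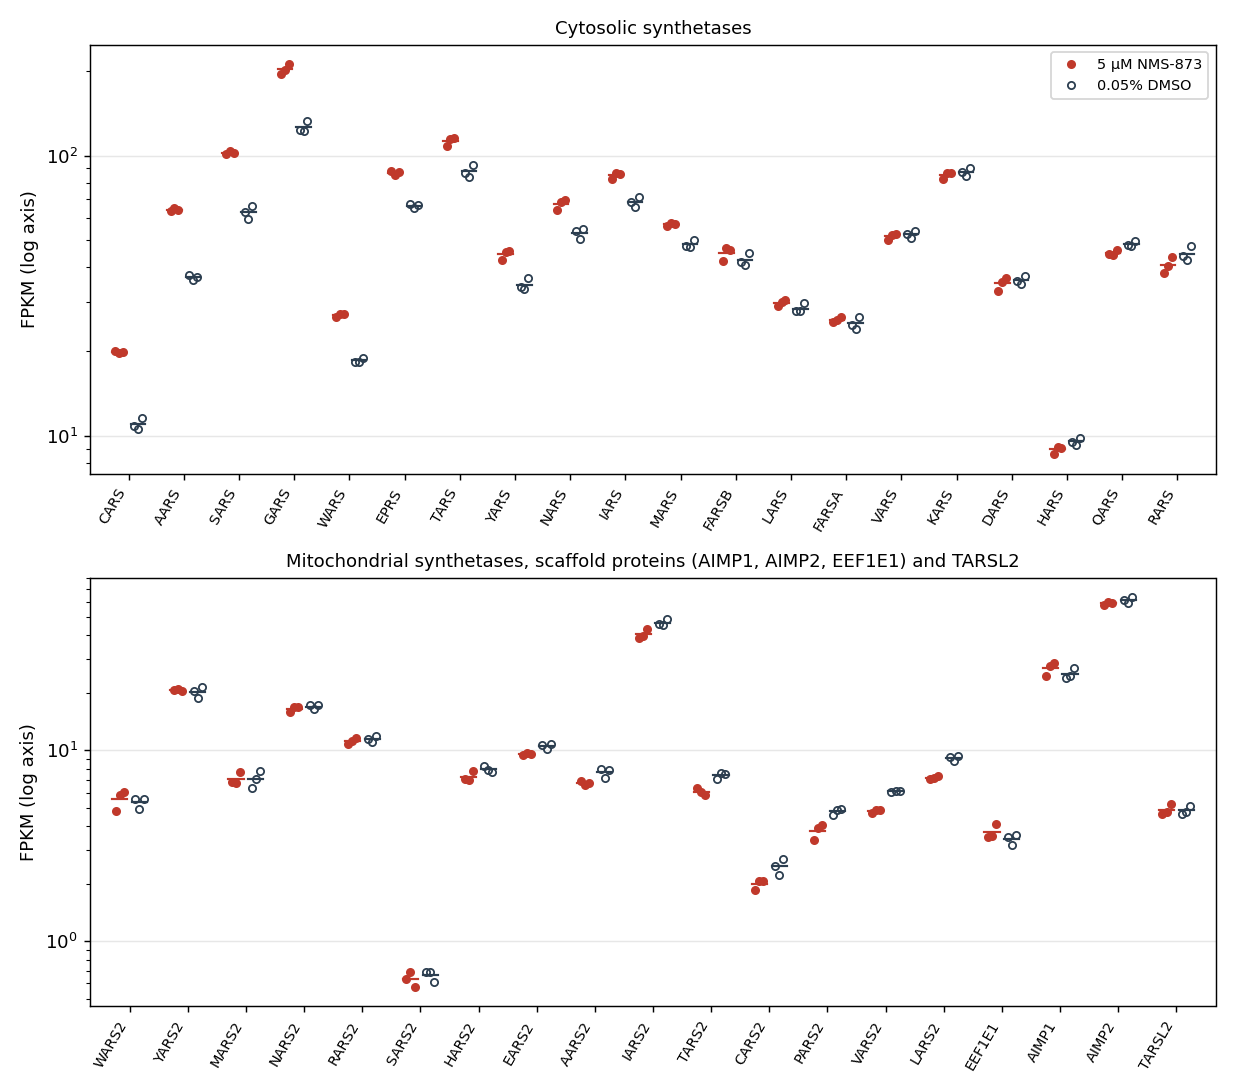
FPKM on a log axis for each library, with 5 µM NMS-873 as filled and 0.05% DMSO as open circles and a line at each mean of 3 libraries; genes run from the largest rise to the largest fall within the cytosolic (upper), mitochondrial, scaffold and TARSL2 groups (lower). From CARS to MARS the NMS-873 libraries lie above all DMSO libraries, and from EARS2 to LARS2 they lie below them.

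CARS, the cysteine enzyme (ENSG00000110619.12, chromosome 11, 3022152 to 3078843, hg19), had the largest change of the 39 genes: its level was 20.1, 19.8 and 19.9 FPKM with NMS-873, against 10.8, 10.6 and 11.6 FPKM with DMSO, a change of 0.86 on the log2 scale (1.81-fold, SE 0.0538, adjusted p = 2.95e-38). AARS, which charges alanine (ENSG00000090861.11, chromosome 16, 70286198 to 70323446), was at 63.2, 64.9 and 63.7 FPKM with NMS-873, against 37.5, 35.9 and 36.8 FPKM with DMSO, a change of 0.80 on the log2 scale (1.74-fold, SE 0.0537, adjusted p = 1.14e-34). In both genes the libraries of a treatment lay close together and far from those of the other. The size of these p-values rests on a variance that limma draws toward a trend over all genes. With no variance trend the adjusted p in limma was 0.000175 for CARS and 0.000145 for AARS. SARS, the serine enzyme, had 101, 104 and 102 FPKM with NMS-873, against 62.9, 59.4 and 66.0 FPKM with DMSO, a 1.63-fold rise (adjusted p = 5.64e-28). GARS makes glycyl-tRNA in both cytosol and mitochondria and was the most abundant of the 39 transcripts per length. It was at 195, 202 and 212 FPKM with NMS-873, against 123, 122 and 133 FPKM with DMSO, a 1.61-fold rise (adjusted p = 1.64e-23). WARS, the tryptophan enzyme, which is also known as an interferon-inducible gene, was at 26.6, 27.3 and 27.3 FPKM with NMS-873, against 18.4, 18.4 and 19.0 FPKM with DMSO, a 1.46-fold rise (adjusted p = 4.82e-19). These 5 genes rose by more than the other cytosolic synthetases and had the same call in all 18 alternative fits.

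The rises of the next group were between 1.25-fold and 1.31-fold. EPRS, a fusion of the glutamate and proline enzymes, had 87.8, 85.2 and 87.7 FPKM with NMS-873, against 67.1, 65.1 and 66.6 FPKM with DMSO, a 1.31-fold rise (adjusted p = 2.62e-10). TARS, for threonine, had 108, 115 and 116 FPKM with NMS-873, against 86.8, 83.7 and 92.9 FPKM with DMSO, a 1.29-fold rise (adjusted p = 1.91e-08). In both, every NMS-873 library was above every DMSO library. YARS, for tyrosine, had 42.3, 45.4 and 45.5 FPKM with NMS-873, against 34.0, 33.4 and 36.6 FPKM with DMSO, a 1.28-fold rise (adjusted p = 5.06e-09). NARS, for asparagine, had 64.2, 68.1 and 69.7 FPKM with NMS-873, against 53.6, 50.2 and 54.6 FPKM with DMSO, also a 1.28-fold rise (adjusted p = 4.65e-09). IARS, for isoleucine, had 82.5, 86.6 and 85.8 FPKM with NMS-873, against 68.1, 65.5 and 71.1 FPKM with DMSO, a 1.25-fold rise (adjusted p = 7.23e-07). NMS-873 replicate 1 was the lowest of its group in TARS, YARS, NARS and IARS, and still above the DMSO libraries.

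MARS, the methionine enzyme, rose least of the 11, to 56.0, 57.4 and 57.0 FPKM with NMS-873, against 47.6, 47.2 and 50 FPKM with DMSO (1.18-fold, adjusted p = 0.00014). Its gene (chromosome 12, 57869228 to 57911352, hg19) shares 982 bases at its end with DDIT3, which lies on the other strand and was at 256, 276 and 270 FPKM with NMS-873, against 7.35, 7.61 and 8.25 FPKM with DMSO. The sources used here do not give whether reads were counted by strand, and the part of DDIT3 in the MARS value was not tested. GARS shares 129 bases with AC005154.6 and WARS 388 bases with WDR25, both on the opposite strand and both higher with NMS-873, at log2 fold changes of 0.55 and 0.27.

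Of the cytosolic genes that did not rise, 8 did not pass and 1 fell. FARSA and FARSB, the subunits of the phenylalanine enzyme, were at log2 fold changes of 0.05 and 0.08. LARS, for leucine, was at 0.07, VARS, for valine, at -0.02, KARS, for lysine, at -0.03, and DARS, for aspartate, at -0.04. In all 6 of these genes the treatments overlapped. FARSB passed without NMS-873 replicate 1 (log2 fold change 0.13, adjusted p = 0.0310). With scaling to the genes FARSA, FARSB and LARS rose, at 0.15, 0.19 and 0.18, and VARS passed at 0.08, and with TMM factors KARS did so as well, also at 0.08. QARS, the glutamine enzyme, had 44.5, 44.1 and 45.9 FPKM with NMS-873, against 47.9, 47.5 and 49.7 FPKM with DMSO, and did not pass in limma (log2 fold change -0.11, adjusted p = 0.0795) although the treatments did not overlap. RARS, for arginine, was the single cytosolic gene that fell. It had 38.1, 40.5 and 43.4 FPKM with NMS-873, against 43.8, 42.4 and 47.6 FPKM with DMSO (log2 fold change -0.13, SE 0.0543, adjusted p = 0.0316), so the treatments overlapped and the change was near that of the median gene. The RARS call was lost in limma without NMS-873 replicate 1 (adjusted p = 0.173) or 2 (adjusted p = 0.0939). It was lost too without DMSO replicate 1 (adjusted p = 0.0655) or 3 (adjusted p = 0.232), and with scaling to the genes (log2 fold change -0.03). TMM factors, no count minimum, log2(FPKM + 0.1) and no variance trend (adjusted p in limma = 0.196) lost the RARS call as well.

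Matches to TGATGNAA, the core of the composite site that C/EBP and ATF factors such as ATF4 and CHOP bind, were looked for on both strands (TTNCATCA on the other) in RefSeq promoter windows of 300 bases, 250 before and 50 after a transcript start (GRCh38.p14). The motif was chosen after the changes of these genes were known. Windows were found for 32 of the 39 members, and not for DARS, LARS, VARS, YARS, AARS2, VARS2 and TARSL2. A match lay in 7 of the 10 cytosolic genes that rose and had a window, in 0 of the 6 other cytosolic genes with one, in 1 of 13 mitochondrial genes and in 0 of 3 scaffold genes. Over all RefSeq genes 4.46% held one in any of their windows (3.62% of windows), and over tested genes that rose, 90 of 1750 (5.14%). The 7 stretches are shown 5′ to 3′ on the strand of the gene, because these genes rose and share the letters, with the match in capitals, and beside them that of ASNS, the asparagine synthetase gene whose ATF4 site is well studied.
AARS: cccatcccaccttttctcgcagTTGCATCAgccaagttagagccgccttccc
CARS: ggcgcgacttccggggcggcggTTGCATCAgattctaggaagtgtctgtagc
GARS: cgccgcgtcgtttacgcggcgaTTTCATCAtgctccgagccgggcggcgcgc
IARS: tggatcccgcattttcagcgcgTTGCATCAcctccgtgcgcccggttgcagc
MARS: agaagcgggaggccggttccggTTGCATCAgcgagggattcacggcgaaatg
NARS: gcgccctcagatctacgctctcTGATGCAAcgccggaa
TARS: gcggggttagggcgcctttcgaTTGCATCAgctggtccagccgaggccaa
ASNS: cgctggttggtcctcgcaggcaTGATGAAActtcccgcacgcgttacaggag
The stretches lie at chr16:70289664-70289715 (minus strand), chr11:3057396-3057447 (minus), chr7:30594823-30594874 (plus), chr9:92293681-92293732 (minus), chr12:57488042-57488093 (plus), chr18:57621807-57621844 (minus), chr5:33440945-33440994 (plus) and, for ASNS, chr7:97872447-97872498 (minus). The match began 187 bases upstream of the start in AARS, 33 in GARS, 13 in IARS, 4 in MARS and 2 in CARS, and at base 3 and base 15 of the transcript in TARS and NARS. In AARS, CARS, IARS, MARS and TARS the same letters, TTGCATCA, stood on the gene's strand, NARS held them on the other strand, and GARS had a T in the free position. EPRS, SARS and WARS rose and held no match in their windows, and the mitochondrial gene with one, YARS2 (TGATGGAA), did not pass the test. Of the listed ATF4-related genes that rose, ASNS and CHAC1 held a match and DDIT3, TRIB3, SESN2, PSAT1 and ATF4 did not, nor did XPOT. The matches are letters in a window and show no binding.

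Several cytosolic synthetases sit together in the multisynthetase complex, held by the scaffold proteins AIMP1, AIMP2 and EEF1E1. Of the 8 synthetases of the complex 3 rose (EPRS, IARS and MARS) and 1 fell (RARS), against 14.9% and 33.0% of all tested genes, and the median log2 fold change was 0.02. Limma's unadjusted p under 0.05 gave 3 and 2, and voom 3 and 1. Of the 12 outside it 8 rose and 0 fell, with a median of 0.36. For the 12 genes limma's unadjusted p under 0.05 and voom gave 8 and 0 again. The difference between these sets was not tested. None of the 3 scaffold genes passed in limma, and by its unadjusted p under 0.05 and by voom the number was 0 too. AIMP1 was at 24.6, 27.5 and 28.5 FPKM with NMS-873, against 23.8, 24.5 and 26.9 FPKM with DMSO (log2 fold change 0.10). It passed without NMS-873 replicate 1 (log2 fold change 0.16, adjusted p = 0.0105) or DMSO replicate 3 (0.15, adjusted p = 0.0327), and with scaling to the genes (0.20). AIMP2, which shares 1585 bases with EIF2AK1 on the opposite strand, was at -0.05 and EEF1E1 at 0.12. With TMM factors EEF1E1 passed at 0.23, and after quantile normalisation at 0.26. It is overlapped on its own strand over 29171 bases by an annotated read-through gene with BLOC1S5, so its level is uncertain. TARSL2 was far lower than TARS, at 4.87 ± 0.319 FPKM with NMS-873 and 4.84 ± 0.249 FPKM with DMSO (SD, n = 3 each), with a log2 fold change of 0.01. By fold of the catalytic domain, 5 of 9 class I and 5 of 10 class II cytosolic enzymes rose, EPRS having one of each.

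**Figure D2:**
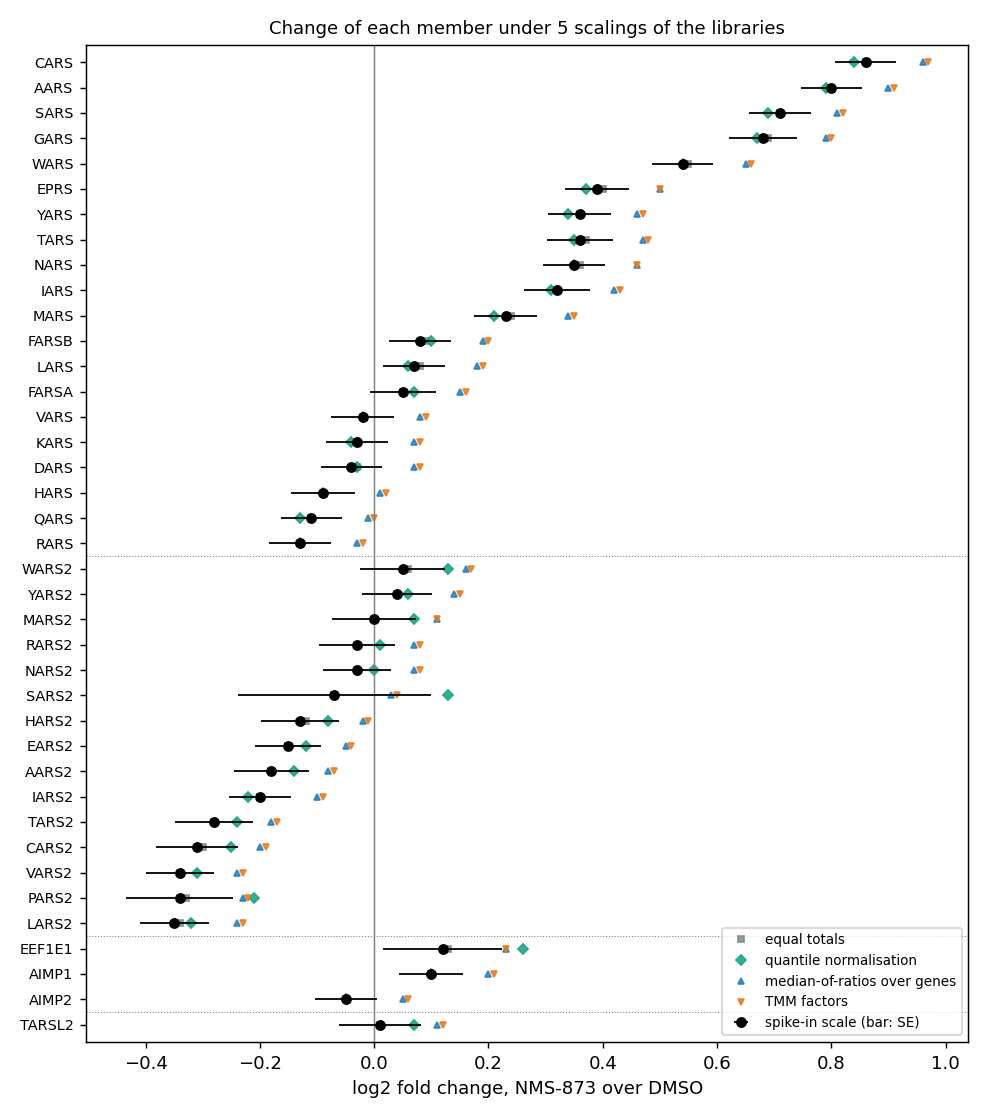
Log2 fold change of NMS-873 over DMSO for each gene on the spike-in scale (black, bar 1 SE) and under 4 other scalings of the libraries (colours); dotted lines part the cytosolic, mitochondrial and scaffold genes and TARSL2. Scaling to the genes and TMM factors move each gene right by about the same step, so that RARS comes to -0.03 and -0.02, VARS to 0.08 and 0.09 and KARS to 0.07 and 0.08, while CARS stays highest and LARS2 and VARS2 stay among the lowest.

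The mitochondrial synthetases that fell did so by less than the leading cytosolic ones rose. LARS2, the mitochondrial leucine enzyme (ENSG00000011376.5, chromosome 3, 45429998 to 45590913), was at 7.09, 7.13 and 7.30 FPKM with NMS-873, against 9.20, 8.83 and 9.33 FPKM with DMSO (log2 fold change -0.35, SE 0.0606, adjusted p = 2.48e-07). VARS2, for valine, was at 4.72, 4.84 and 4.85 FPKM with NMS-873, against 6.07, 6.10 and 6.09 FPKM with DMSO (log2 fold change -0.34, SE 0.06, adjusted p = 2.79e-07). Both were 1.27-fold lower with NMS-873, with no overlap of the treatments. VARS2 shares 5865 bases with GTF2H4 on its own strand, so reads there may not have been assigned to it and its level is uncertain. PARS2, for proline, was at 3.38, 3.93 and 4.07 FPKM with NMS-873, against 4.57, 4.86 and 4.93 FPKM with DMSO (log2 fold change -0.34, adjusted p = 0.00134). CARS2, for cysteine, was at 1.86, 2.06 and 2.06 FPKM with NMS-873, against 2.49, 2.22 and 2.69 FPKM with DMSO (log2 fold change -0.31, adjusted p = 0.000122). The treatments did not overlap in these genes either, and NMS-873 replicate 1 was the lowest library in both. TARS2, for threonine, and IARS2, for isoleucine, fell 1.22-fold and 1.15-fold, and these 6 calls held in all 18 alternative fits. Their sizes shrank with scaling to the genes, to -0.24 in LARS2 and VARS2, -0.23 in PARS2, -0.20 in CARS2, -0.18 in TARS2 and -0.10 in IARS2, and PARS2 was at -0.21 after quantile normalisation. AARS2, for alanine, was 1.13-fold lower (log2 fold change -0.18, adjusted p = 0.0147). EARS2, which charges glutamate, was 1.11-fold lower (log2 fold change -0.15, adjusted p = 0.0235). Both were lost with scaling to the genes, at -0.08 and -0.05. Without NMS-873 replicate 2, DMSO replicate 1 or DMSO replicate 3 the adjusted p was 0.0715, 0.0945 and 0.0626 for AARS2 and 0.0513, 0.0984 and 0.0743 for EARS2.

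The other 7 mitochondrial genes did not pass. HARS2, for histidine, was at -0.13 (adjusted p = 0.116) and passed without NMS-873 replicate 3 (-0.17, adjusted p = 0.0475), and NARS2, RARS2, MARS2, YARS2 and WARS2, for asparagine, arginine, methionine, tyrosine and tryptophan, lay between -0.03 and 0.05. YARS2 rose with scaling to the genes, at 0.14, and with TMM factors WARS2 rose as well, at 0.17. WARS2 was at 4.83, 5.86 and 6.02 FPKM with NMS-873, against 5.58, 4.90 and 5.56 FPKM with DMSO, so replicate 1 stood apart from the other NMS-873 libraries. SARS2, for serine, was the lowest of the 39, at 0.632 ± 0.0571 FPKM with NMS-873 and 0.664 ± 0.0443 FPKM with DMSO (SD, n = 3 each). It shares 8452 bases with FBXO17 and 34452 bases with CTC-360G5.8 on its own strand, so reads there may not have been assigned to it and its level is uncertain. IARS2 was by far the highest of the mitochondrial set, at 40.5 ± 2.28 FPKM with NMS-873 and 46.6 ± 1.65 FPKM with DMSO (SD, n = 3 each).

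Ratios were taken for 13 amino acids with a cytosolic and a mitochondrial gene of their own among the members. EPRS, which serves both glutamate and proline, was not paired with EARS2 or PARS2. There EPRS rose (log2 fold change 0.39) and EARS2 and PARS2 fell (-0.15 and -0.34). A ratio within a library does not move with a common factor for that library. Quantile normalisation, which is not such a factor, can move it. The ratio was higher with NMS-873 in 12 of the 13 pairs, and in 10 of them every NMS-873 library lay above every DMSO library. CARS over CARS2 moved most, at 10.8, 9.64 and 9.65 with NMS-873, against 4.35, 4.77 and 4.32 with DMSO, a 2.24-fold higher ratio. AARS over AARS2 was at 9.12, 9.83 and 9.41 with NMS-873, against 4.72, 4.99 and 4.64 with DMSO, 1.98-fold higher. In these pairs the cytosolic gene rose and the mitochondrial gene fell. LARS over LARS2 was at 4.11, 4.23 and 4.18 with NMS-873, against 3.03, 3.15 and 3.19 with DMSO, 1.34-fold higher, and VARS over VARS2 was 1.25-fold higher; here only the mitochondrial gene passed the test. NARS over NARS2 and YARS over YARS2 were 1.30-fold and 1.25-fold higher, and here only the cytosolic gene did. YARS2 shares 18063 bases with DNM1L on the opposite strand, and DNM1L had the larger mean count (3343.6). Whether reads were counted by strand is not given, so the level of YARS2 may be uncertain. The ratios of SARS to SARS2 (1.72-fold, uncertain because of SARS2), TARS to TARS2 (1.56-fold), IARS to IARS2 (1.43-fold) and WARS to WARS2 (1.40-fold) also separated the treatments. MARS over MARS2 was 1.18-fold higher, with overlap of the treatments. MARS2 shares its whole span, 3027 bases, with AC011997.1 on its own strand, so its level may be uncertain, as is that of VARS2. HARS over HARS2 moved least, at 1.21, 1.32 and 1.17 with NMS-873, against 1.15, 1.18 and 1.27 with DMSO. Their genes are neighbours that share 599 bases on opposite strands on chromosome 5. HARS also shares 952 bases with WDR55, which lies on the opposite strand and fell (log2 fold change -0.35). HARS itself was at 8.61, 9.16 and 9.08 FPKM with NMS-873, against 9.52, 9.29 and 9.83 FPKM with DMSO (log2 fold change -0.09, adjusted p = 0.161). RARS over RARS2 was the only lower ratio, at 3.51, 3.61 and 3.74 with NMS-873, against 3.84, 3.82 and 3.99 with DMSO, and did not overlap. An exact two-sided permutation test over 3 libraries against 3 cannot go under p = 0.10, which all 11 pairs without overlap reached, and adjusted over the 13 pairs none passed (lowest adjusted p = 0.12).

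**Figure D3:**
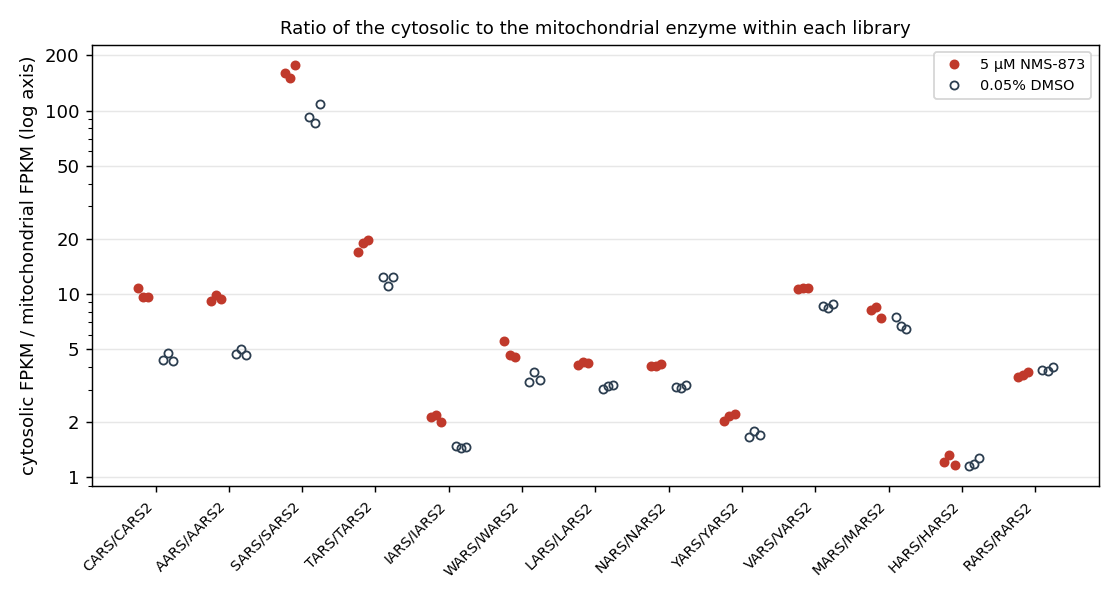
Ratio of cytosolic to mitochondrial FPKM within each library, on a log axis, for 13 amino acids, with 5 µM NMS-873 as filled and 0.05% DMSO as open circles, ordered by the change of the ratio. The ratio is near 10 with NMS-873 and under 5 with DMSO for CARS and for AARS, and the treatments overlap for MARS and for HARS.

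Genes that act beside the synthetases were taken from lists. Of 12 genes of tRNA charging, editing and export 3 rose and 4 fell, around a median of -0.03 (log2), where 14.9% of all tested genes rose and 33.0% fell. Scaling to the genes gave 4 and 1, against 25.3% and 20.9% of all tested genes. TRNT1, which adds the CCA end that synthetases load, was at 8.58, 8.47 and 8.92 FPKM with NMS-873, against 6.74, 6.28 and 6.85 FPKM with DMSO, a 1.31-fold rise (adjusted p = 1.15e-08). XPOT, which exports tRNA from the nucleus, was at 33.3, 34.4 and 35.5 FPKM with NMS-873, against 28.9, 28.4 and 30.1 FPKM with DMSO, a 1.18-fold rise (adjusted p = 7.09e-05). Neither gene's libraries overlapped between treatments. MTFMT, which formylates the mitochondrial initiator tRNA, was at 5.63, 6.40 and 7.11 FPKM with NMS-873, against 7.53, 7.59 and 8.63 FPKM with DMSO (log2 fold change -0.31, adjusted p = 0.000321). It still passed without NMS-873 replicate 1, at -0.23 (adjusted p = 0.0141). DTD2, a relative of the D-aminoacyl-tRNA deacylase, was at -0.28 (adjusted p = 0.00802) and did not pass without that replicate (-0.22, adjusted p = 0.0629). The enzyme that converts glutamate to glutamine on mitochondrial tRNA has 3 subunits: QRSL1 rose (log2 fold change 0.22, and 0.25 without NMS-873 replicate 1), while PET112 and GATC fell (-0.18 and -0.17). Without NMS-873 replicate 1 neither PET112 (-0.12, adjusted p = 0.208) nor GATC (-0.11, adjusted p = 0.21) passed, and each kept its call in 3 of the 6 fits that leave out a library; the treatments overlapped in GATC. Of 6 tested genes that carry charged tRNA to ribosomes 0 rose and 1, EEF1A2, a form of the elongation factor that delivers charged tRNA, fell (log2 fold change -0.14, adjusted p = 0.0239), against 14.9% and 33.0% of all tested genes. EEF1A2 kept its call in 2 of the 6 fits that leave out a library, and not without NMS-873 replicate 1 (-0.11, adjusted p = 0.0964). Limma's unadjusted p under 0.05 and voom gave 0 and 1 of the 6 genes as well. Scaling to the genes gave 2 and 0, where 25.3% and 20.9% of all tested genes rose and fell. EEF1G is listed at 0 and was not tested.

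The sensor of uncharged tRNA itself, EIF2AK4, was at 10.8, 11.6 and 12.5 FPKM with NMS-873, against 12.1, 12.2 and 12.5 FPKM with DMSO, and did not pass (log2 fold change -0.08, adjusted p = 0.245). Its partner GCN1L1 was at -0.13 (adjusted p = 0.0416), near the median gene, and kept its call in 2 of the 6 fits that leave out a library. ATF4 was at 375, 395 and 403 FPKM with NMS-873, against 200, 199 and 213 FPKM with DMSO, a 1.91-fold rise. ASNS, a target of ATF4, was at 77.0, 74.0 and 76.0 FPKM with NMS-873, against 30.9, 31.1 and 32.1 FPKM with DMSO, a 2.41-fold rise. CARS and AARS changed by smaller folds than either gene. Charging of tRNA was not measured, and what raised these genes was not tested. DDIT3, the gene of the factor CHOP, rose 34.42-fold with the values given beside MARS. SESN2, a stress-induced inhibitor of mTORC1 signalling, was at 119, 122 and 122 FPKM with NMS-873, against 10.8, 9.64 and 10.3 FPKM with DMSO, an 11.82-fold rise. CHAC1, which degrades glutathione, was at 83.3, 83.0 and 85.3 FPKM with NMS-873, against 6.17, 6.13 and 6.71 FPKM with DMSO, a 13.20-fold rise. In that list of 10 genes 7 rose and 1 fell, where 14.9% of all tested genes rose and 33.0% fell. The list was composed with the response of these genes known.

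In the table that the authors deposited, 11 cytosolic genes were higher and 1 lower at an adjusted p under 0.05, and 0 mitochondrial genes were higher and 7 lower; over all genes with an adjusted p there, 11.2% were higher and 22.0% lower. The authors' deposited table differs from the limma calls in 3 members: it calls QARS lower (adjusted p = 0.0413) and calls neither RARS (adjusted p = 0.0671) nor AARS2 (adjusted p = 0.0553).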

How the data were processed

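RNA-seq of 6 libraries was analysed, grouped by title. The libraries were made with a strand-keeping mRNA kit and shared 1 flow cell, per the labels' protocols; hg19, featureCounts 1.5.1 and DESeq2 1.16.1 are named in the submitters' processing notes. The aligner and strand setting are not given in the sources used here. The deposited table has 57912 rows, 92 of them ERCC spike-ins. Its sample columns hold FPKM values, judged from the values because the deposited headers give only names. It also holds the authors' mean normalised count (a signal, reads over size factors), log2 fold change and adjusted p-value, all as deposited.

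The design assumed normalised counts, so these were rebuilt as FPKM times the deposited mean over the gene's mean FPKM. Times the implied size factors, 100% of values came within 0.001 of whole reads, and these factors matched median-of-ratios factors of the spike-ins. limma 3.58.1 in R 4.3.3 was run on log2(normalised count + 1), with a single treatment term, a variance trend, two-sided tests and Benjamini-Hochberg adjustment over 14889 genes; this scale understates changes of low genes. On simulated counts the fit recovered 38% of 1.25-fold, 82% of 1.5-fold, 92% of 2-fold and 98% of 4-fold changes. It made 10 false calls among 14689 unchanged genes. The spread was fixed in that simulation, so recovery in these data may differ. Alternatives were scaling, pseudocount, count minimum, FPKM, no variance trend, voom, a replicate block and leaving out each library. The members and lists were chosen with earlier results of these data known. Every member is named, with values per library for those past the threshold with a log2 change of at least 0.3 in size and for members against their set; of other lists, the 3 lowest adjusted p and fixed genes. MARS, QARS, HARS, AIMP1, WARS2 and the LARS pair were given in full after their values were seen. Promoters are from RefSeq (GRCh38.p14), matched by gene identifier and symbol.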

Additional observations from a re-analysis of the deposited data

How the results depend on the processing

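Of the 39 members, 24 kept their call in all 18 alternative fits, the 11 cytosolic genes that rose and 6 mitochondrial genes that fell among them. Over all genes 3760 rose and 3108 fell with scaling to the genes and 3920 and 2952 with TMM factors, against 2217 and 4910. Cytosolic genes that fell numbered 0 with scaling to the genes, TMM factors, log2(FPKM + 0.1), no count minimum or no variance trend, 2 with equal totals, 3 after quantile normalisation, and 0 to 1 without any single library, against 1. Mitochondrial genes that rose numbered 1 with scaling to the genes and 2 with TMM factors, against 0. The gap between the set medians was 0.38 after quantile normalisation and 0.41 to 0.45 without any single library, against 0.43. VARS turned to 0.08 with scaling to the genes and 0.09 with TMM factors, and KARS to 0.08 with TMM factors (log2). The cause was not tested; scaling to the genes and TMM factors shift all genes by a common step. Same-numbered libraries of the treatments were not shown to be paired (correlations of their deviations 0.07, -0.02 and 0.12); with the number as a replicate block 2352 genes rose, 5255 fell and QARS joined RARS, so 2 cytosolic genes fell. With 3 libraries a treatment, a gene that did not pass is not shown to be unchanged.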
